A study of Mus musculus with 4 samples.

Results

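Calcium entering a neuron is read by calmodulin, which switches on the calmodulin-dependent protein kinases (CaM kinases) and the phosphatase calcineurin. CaM kinase II (CaMKII) is a holoenzyme built from subunits encoded by Camk2a, Camk2b, Camk2d and Camk2g, is abundant at the postsynaptic side of excitatory synapses and is best known there for its part in long-term potentiation, whereas calcineurin opposes many of the same phosphorylations and is tied to synaptic depression. The genes described here are those 4 subunits together with Camk4, the nuclear CaM kinase IV, Camkk1 and Camkk2, the kinases that activate CaM kinases I and IV, Nrgn (neurogranin), which holds calmodulin at low calcium, and Ppp3ca, the alpha catalytic subunit of calcineurin. They were chosen by name, with earlier results of these data known. The transcript cluster (the array's gene-level feature) that carried each symbol in the platform annotation stood for the gene. Of the 9 genes, 8 were measured, each by 1 of the 19572 named transcript clusters, and Camkk1 was not analysed here because no transcript cluster carried its symbol.

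The data came from brain cortex of male mice of SAMR1, a senescence-resistant line that ages normally and serves as control for the senescence-accelerated mouse strains. TCQA (tricaffeoylquinic acid, a plant polyphenol) was given orally each day, at a dose of 5 mg/kg, over 1 month starting at 11 months of age, and the control mice received MilliQ water. All mice had been caged singly for 4 months from 7 months of age. Each group was represented by 2 Clariom S arrays, 4 in all, and because the labels leave unsaid whether 1 animal or several gave the RNA of an array, p-values reflect the spread among these samples alone, which may be technical. Values are the authors' log2 signals after signal space transformation RMA, where a difference of 1 is 2-fold on their scale. Signals of different genes cannot be set against each other, because each rests on its own probes.

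The level of Camk2b was 1.49-fold higher after TCQA, and none of the 8 genes passed the threshold after adjustment. Camk2b was the 1 gene of the 8 with an unadjusted p under 0.05 (limma), a mark reached by 7.37% of all named transcript clusters. The submitters' criteria (unadjusted p under 0.05 and more than 2-fold) were met by 0 of the 8 and by 0.664% of all, and the Benjamini-Hochberg threshold of 0.05 by 0 of the 8 and 0% of all. Of the 8 genes 6 had a higher mean after TCQA, against 50.5% of all, and their median log2 change was 0.12, against 0.0028 over all named transcript clusters. This count and median were 5 and 0.037 without water 1, and 7 and 0.15 without water 2. The groups did not overlap for 3 of the 8, Camk2b, Camk4 and Ppp3ca, each with both TCQA arrays above both water arrays. Of all transcript clusters 19.9% had that order, 19.2% had the opposite order and 39.2% did not overlap in either direction. Of all transcript clusters 3.48% were higher and 3.89% lower at an unadjusted p under 0.05. Counts near these shares are no result about the 8 genes.

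Marker genes of cell types and brain regions differed between the arrays. Slc17a7, the vesicular glutamate transporter that defines cortical excitatory neurons, was well above background at 16.32 and 16.27 in the TCQA arrays and 15.98 and 16.34 in the water arrays. Of 14 measured excitatory neuron markers 13 had a higher mean after TCQA. Their summed linear signal, in units of 1000, was 132.7 and 130.3 in the TCQA arrays and 96.6 and 129.6 in the water arrays, and Emx1 lay below the median of the negative control probe sets (6.98) in both groups. Water 1 held the lowest value of 11 of these 14 markers. It also held the highest value of 14 of 14 striatal spiny neuron markers, whose summed signal was 205.4 and 149.1 in the TCQA arrays and 372.9 and 184.7 in the water arrays. TCQA 2 held the highest value of 9 of 10 olfactory bulb markers, whose mean level was 7.13 and 8.77 in the TCQA arrays and 7.37 and 7.24 in the water arrays. Values without single arrays therefore stand beside the results that depend on them. A summed signal is carried mostly by the brightest genes of its list. In such bulk tissue, fewer cells of a type and less RNA per cell cannot be told apart.

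**Figure D1:**
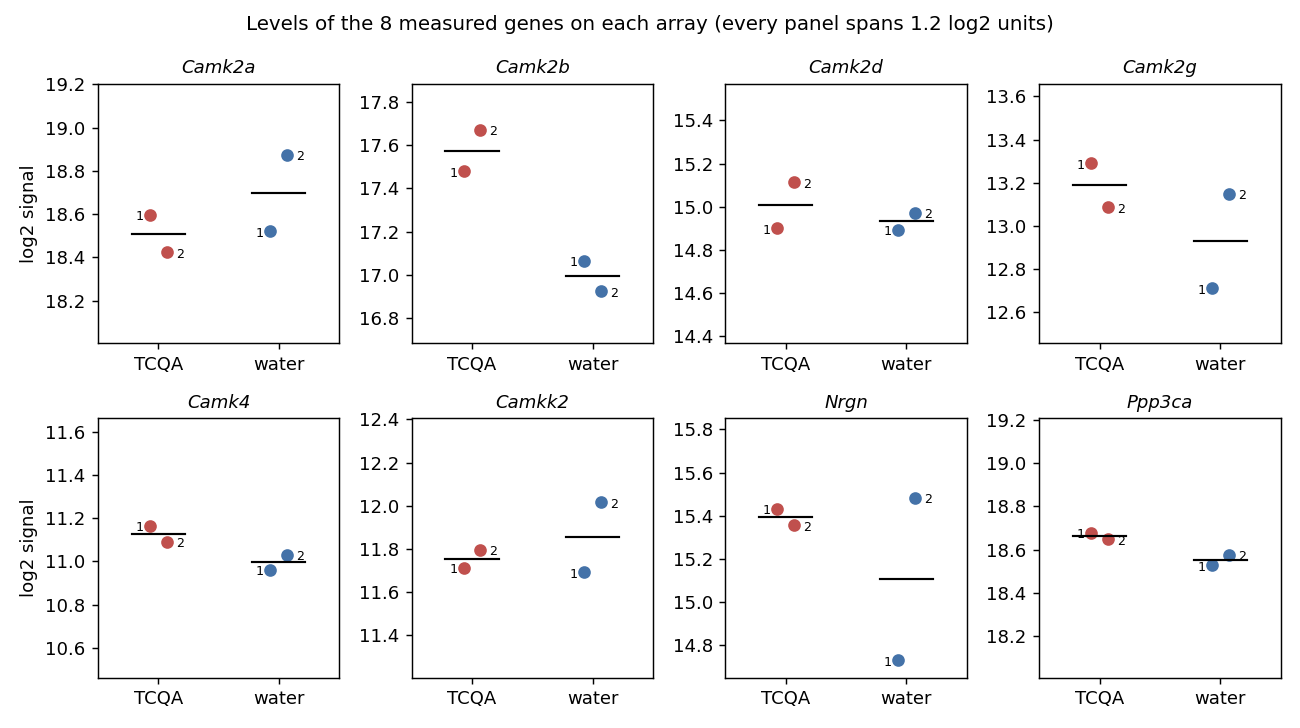
Log2 signal of the 8 measured genes on each array, TCQA left and water right in every panel, with points numbered by replicate and a bar at the group mean. Both TCQA points of Camk2b (17.48 and 17.67) lie above both water points (17.07 and 16.93), while Nrgn has 1 low point, water 1 at 14.73.

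Among the CaMKII subunits, Camk2b encodes the beta subunit, which also binds filamentous actin in dendritic spines. Its level was 17.48 and 17.67 in the TCQA arrays, against 17.07 and 16.93 in the water arrays. Both TCQA arrays were higher than both water arrays, and the gap between groups exceeded the gap within either of them. The means were 17.57 ± 0.14 after TCQA and 17.00 ± 0.10 after water (SD, n = 2 each), which gave a log2 change of 0.58 with SE 0.19 and a 95% interval of 0.11 to 1.05 (limma, unadjusted p = 0.0229, adjusted p = 0.673). As a fold this was 1.49, with an interval of 1.08 to 2.07. Leaving out 1 array gave log2 changes between 0.48 and 0.68. The unadjusted p was no longer under 0.05 without TCQA 2 (0.48, limma, unadjusted p = 0.118) and without water 2 (0.51, limma, unadjusted p = 0.0915). With TCQA 2 and water 1 both left out, an omission chosen after seeing the data that leaves no test, TCQA 1 and water 2 differed by 0.55. Excitatory marker sums were 132.7 and 130.3 in the TCQA arrays and 96.6 and 129.6 in the water arrays. Only water 1 stood apart in that sum, while Camk2b was lowest in water 2. By mean log2 level of the same markers both water arrays were below both TCQA arrays. That level was 11.25 and 11.21 in the TCQA arrays and 10.65 and 11.08 in the water arrays. The part of those markers in the Camk2b result was not tested.

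Camk2a encodes the alpha subunit, the most abundant CaMKII subunit of forebrain excitatory neurons. Its levels were 18.60 and 18.42 in the TCQA arrays and 18.52 and 18.88 in the water arrays. Water 2 was high, TCQA 2 was low, and the groups overlapped. The log2 change was -0.19 with SE 0.21 and a 95% interval of -0.70 to 0.33 (limma, adjusted p = 0.841). It stood at -0.37 without water 1 and at -0.012 without water 2.

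The other subunits are less restricted to neurons. Camk2d, encoding the delta subunit that is also prominent in heart, lay at 14.90 and 15.11 in the TCQA arrays and at 14.89 and 14.97 in the water arrays. These values overlapped, with a log2 change of 0.072 (95% interval -0.39 to 0.54), which was -0.034 without TCQA 2. Camk2g, encoding the gamma subunit, which can carry calmodulin to the nucleus, lay at 13.29 and 13.09 in the TCQA arrays and at 12.71 and 13.15 in the water arrays. Here water 1 alone was low and the groups overlapped. The log2 change of 0.26 (95% interval -0.29 to 0.81, limma, adjusted p = 0.790) was 0.041 without water 1 and 0.48 without water 2.

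**Figure D2:**
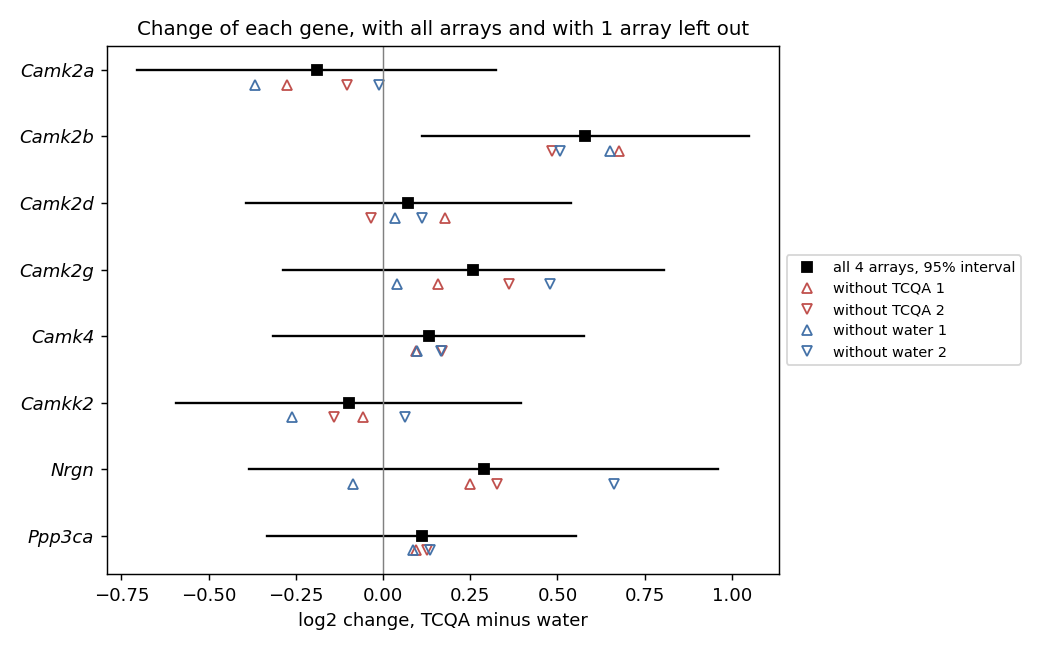
Log2 change of each of the 8 genes, TCQA minus water. Squares and lines give the estimate and 95% interval from all 4 arrays, and open triangles give the estimate with 1 array left out. The interval of Camk2b (0.11 to 1.05) lies above 0, the intervals of the other 7 genes include 0, and the triangles of Nrgn run from -0.087 to 0.66.

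Since subunits of CaMKII assemble with each other, the balance of their transcripts was followed within each array as the difference of log2 signals, where the change between groups is informative and the difference itself is not. Camk2b minus Camk2a was -1.12 and -0.75 in the TCQA arrays, against -1.45 and -1.95 in the water arrays. Both TCQA values were higher, so that the Camk2b signal was 1.70-fold higher relative to Camk2a after TCQA (a difference of 0.77 on the log2 scale). Camk2b minus Camk2d was 2.58 and 2.56 in the TCQA arrays, against 2.17 and 1.95 in the water arrays, again without overlap and with a difference of 0.51. Camk2g minus Camk2a was -5.31 and -5.34 in the TCQA arrays, against -5.81 and -5.73 in the water arrays. The difference of 0.45 for this pair lay between 0.41 and 0.49 when any 1 array was left out. The Camk2b and Camk2a difference lay between 0.52 and 1.02 under the same omissions, 0.59 without TCQA 2 and 0.52 without water 2. The remaining pairs overlapped between groups. Their differences were 0.32 for Camk2b minus Camk2g (0.031 without water 2), 0.19 for Camk2g minus Camk2d and -0.26 for Camk2a minus Camk2d. Of the 6 subunit pairs, which share their genes and so are not independent, 3 did not overlap between groups, where 39.2% of all single transcript clusters did not, and no result is read from that count. With 2 arrays against 2 the exact permutation test (2-sided) cannot go below p = 0.333, which these 3 pairs reached, or 0.667 after adjustment over the 6 pairs.

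**Figure D3:**
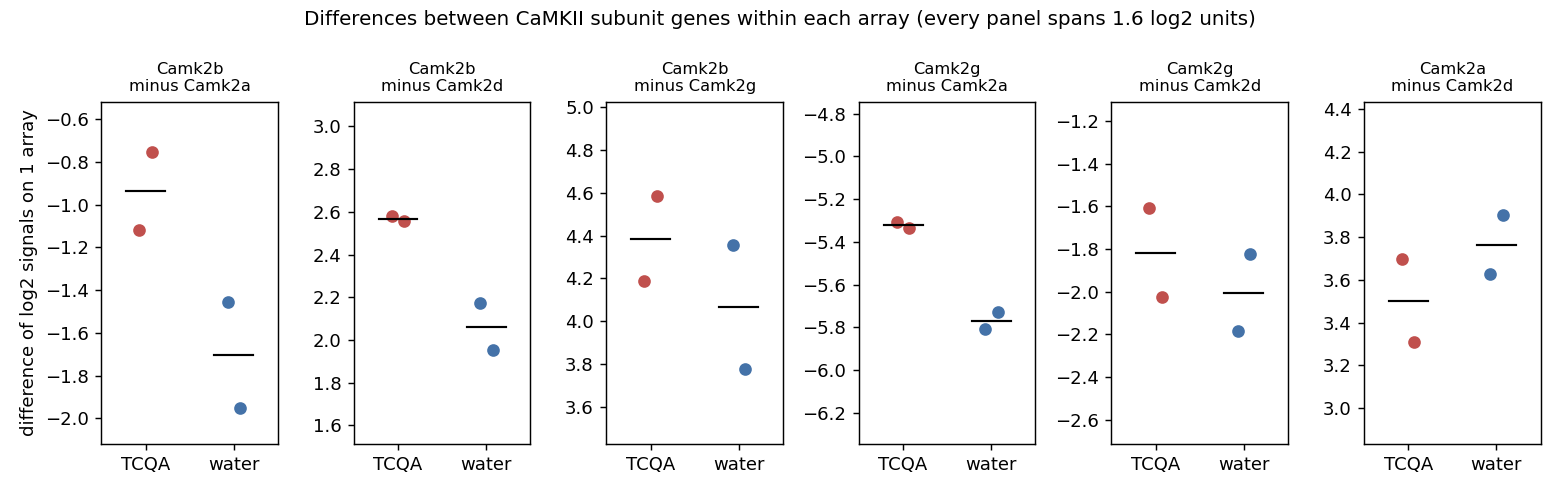
Difference of log2 signals between pairs of CaMKII subunit genes on the same array, TCQA left and water right, with bars at group means. Camk2b minus Camk2a, Camk2b minus Camk2d and Camk2g minus Camk2a do not overlap between groups, and the other 3 pairs do.

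Nrgn encodes neurogranin, a postsynaptic protein of excitatory neurons that sequesters calmodulin until calcium rises. It was at 15.43 and 15.36 in the TCQA arrays and at 14.73 and 15.48 in the water arrays. Water 1 was far below the other arrays, and water 2 was above both TCQA arrays. The log2 change was 0.29 with SE 0.28 and a 95% interval of -0.38 to 0.96 (limma, adjusted p = 0.808). Its direction rested on water 1: without that array the change was -0.087, and without water 2 it was 0.66 with an unadjusted p of 0.0356 (limma, adjusted p = 0.545). The array with the low Nrgn level is the one with the lowest excitatory marker sum (96.6), and the part of those markers in this result was not tested. Water 1 held the lowest value for 6 of the 8 genes, against 26.6% of all transcript clusters. The exceptions were Camk2a, lowest in TCQA 2, and Camk2b, lowest in water 2.

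**Figure D4:**
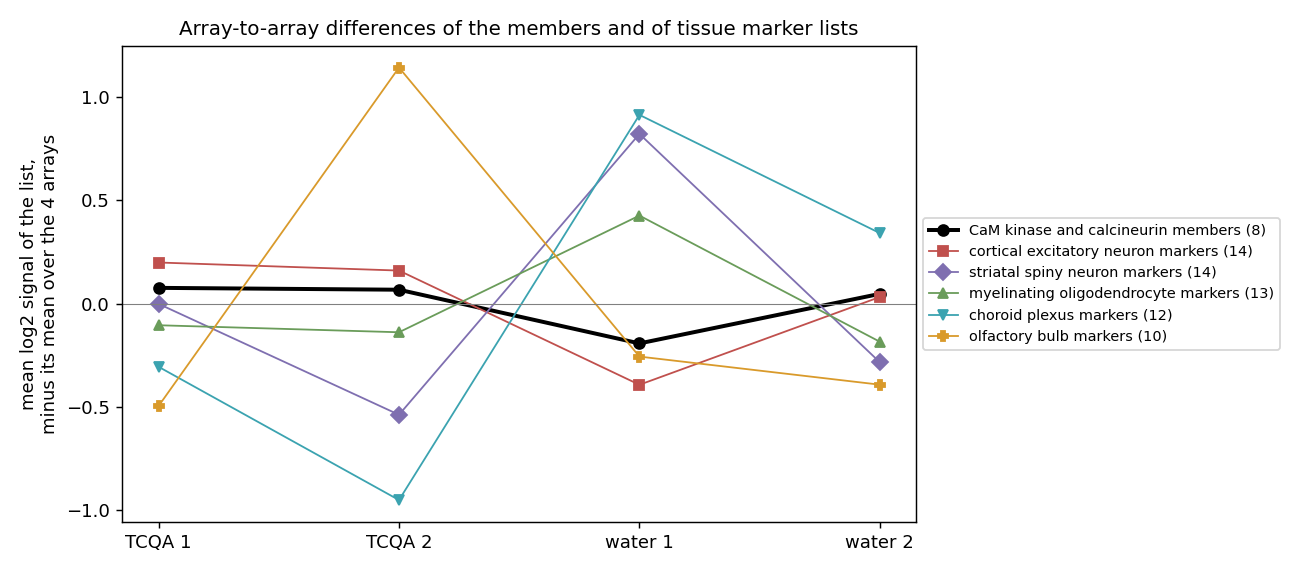
Mean log2 signal of the 8 members and of 5 marker lists on each array, each list centred on its own mean over the 4 arrays, with the number of measured genes in brackets. On water 1 the members and the excitatory neuron markers are at their lowest and the striatal, myelin and choroid plexus markers at their highest, and TCQA 2 has the highest olfactory bulb markers (8.77 before centring).

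In the kinase cascade, Camkk2 encodes the beta isoform of CaM kinase kinase, which also activates AMP-activated protein kinase. It lay at 11.71 and 11.80 in the TCQA arrays and at 11.69 and 12.02 in the water arrays. The groups overlapped and water 2 was highest, with a log2 change of -0.10 (95% interval -0.59 to 0.40), which was 0.064 without water 2. Camk4, whose product phosphorylates the transcription factor CREB in the nucleus, lay at 11.17 and 11.09 in the TCQA arrays, against 10.96 and 11.03 in the water arrays. Its groups did not overlap, yet the log2 change was only 0.13 with SE 0.19 (limma, adjusted p = 0.881), between 0.094 and 0.17 with 1 array left out. Camk4 was the 1 gene of the 8 with a group mean (11.00 after water) below the 95th percentile of the negative controls (11.06).

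Ppp3ca lay at 18.68 and 18.65 in the TCQA arrays, against 18.53 and 18.58 in the water arrays. The 4 arrays were close and both TCQA arrays were higher. The log2 change was 0.11 with SE 0.18 and a 95% interval of -0.33 to 0.55 (limma, adjusted p = 0.902). Leaving out 1 array gave 0.087 to 0.13. Ppp3ca and Camk2a were near the top of the signal range, with 0.0051% and 0.010% of named transcript clusters brighter. Whether differences are compressed at such signals was not tested. The other calcineurin subunits did not pass the test either. Ppp3r1, the regulatory subunit of brain, lay at 17.61 and 17.67 in the TCQA arrays, against 17.34 and 17.54 in the water arrays (log2 change 0.20, SE 0.19). Ppp3cb, the beta catalytic subunit, had a log2 change of 0.18 (SE 0.20), and Ppp3cc, the gamma catalytic subunit, one of 0.28 (SE 0.30), which was -0.067 without TCQA 2. Ppp3r2, the regulatory subunit known from testis, was below the negative control median in both groups (4.77 and 4.57). None of the 5 subunit genes had an unadjusted p under 0.05 by limma, and positive estimates were also seen in 50.5% of all transcript clusters.

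Of 79 measured genes in 6 lists of related genes of the pathway, from which the members are left out here and 3 of which stand in more than 1 list, 46 had a higher mean after TCQA and the median log2 change was 0.03, with 1 gene higher and 3 lower at an unadjusted p under 0.05 by limma, to be read against the 3.48% and 3.89% of all. None passed the adjusted threshold. For calcineurin subunits and regulators 8 of 12 measured genes were higher (median 0.094). For kinases downstream of CaMKK, a list that also holds Stk11, which acts beside CaMKK, it was 7 of 11 (median 0.037). For the NFAT, CREB, CRTC and MEF2 factors with their cofactors it was 10 of 17 (median 0.06). For the other CaM kinases and CaMKII inhibitors 9 of 17 were higher (median 0.03), for synaptic partners and substrates of CaMKII 10 of 18 (median 0.03), and for calmodulin and its buffers 3 of 7 (median -0.20).

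The measured calmodulin genes had log2 changes of 0.02 (SE 0.19) for Calm2 and 0.14 (SE 0.18) for Calm3. Pcp4, a small IQ-motif protein that speeds calcium exchange on calmodulin, was at 14.73 and 14.79 in the TCQA arrays, against 15.56 and 15.18 in the water arrays. Both TCQA arrays were lower, with a log2 change of -0.61 and SE 0.21 (limma, unadjusted p = 0.0258, adjusted p = 0.673). The unadjusted p was not under 0.05 without water 1 (-0.42), TCQA 1 (-0.58) or TCQA 2 (-0.64). The striatal marker sum was highest in the same array as Pcp4, water 1 (372.9). Over the other arrays their orders differed, with a sum of 205.4 in TCQA 1, 149.1 in TCQA 2 and 184.7 in water 2. The part of those markers in the Pcp4 value was not tested. Gap43, a growth cone protein related to neurogranin through its calmodulin-binding IQ motif, had a log2 change of -0.20 (SE 0.19), and Calml3, a calmodulin-like gene below the negative control median in both groups, one of -0.24 (SE 0.19).

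Calml4, a calmodulin-like gene known from intestinal brush border, was at 4.84 and 4.50 in the TCQA arrays, against 6.42 and 6.15 in the water arrays. Both TCQA arrays were lower, with a log2 change of -1.62 and SE 0.22 (limma, unadjusted p = 0.000234, adjusted p = 0.642), and leaving out 1 array gave -1.79 to -1.45. All 4 values lay below the negative control median of 6.98, so the size of this change is uncertain. Choroid plexus markers were lower in the same arrays, with 11 of 12 lower after TCQA and a summed linear signal, in the same units, of 45.1 and 3.9 in the TCQA arrays and 220 and 160.5 in the water arrays. Most of that sum was Ttr, at 15.42 and 11.46 in the TCQA arrays and 17.72 and 17.27 in the water arrays. The mean log2 level of the 12 was 7.27 and 6.62 in the TCQA arrays and 8.48 and 7.91 in the water arrays. Of these 12 markers Aqp1, Cldn2, Otx2, F5 and Kcne2 were below the negative control median in both groups, and the part of those markers in the Calml4 value was not tested.

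Crtc1, a CREB coactivator that calcineurin sends to the nucleus, was at 13.63 and 13.52 in the TCQA arrays, against 13.17 and 13.08 in the water arrays. Both TCQA arrays were higher, with a log2 change of 0.45 and SE 0.19 (limma, unadjusted p = 0.0491, adjusted p = 0.673), and the unadjusted p was not under 0.05 when any 1 array was left out (0.40 to 0.51). Creb1 itself had a log2 change of -0.29 (SE 0.19), Atf1, its close relative, one of 0.31 (SE 0.19), and Crebbp, the CREB-binding acetyltransferase, one of -0.26 (SE 0.19). Chp2, a calcineurin B homologue, had a log2 change of -0.55 (SE 0.22, limma, unadjusted p = 0.0427), whose unadjusted p was not under 0.05 without TCQA 2 (-0.37), water 1 (-0.44) or water 2 (-0.66), nor under 4 of the other alternatives, and both its group means were below the negative control median. Its paralogue Chp1 had one of 0.40 (SE 0.20, limma, unadjusted p = 0.0864).

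Among the synaptic partners and substrates of CaMKII, the smallest p-values belonged to genes that did not pass. Shank3, a postsynaptic scaffold, lay at 8.60 and 8.60 in the TCQA arrays, against 9.01 and 9.04 in the water arrays, without overlap and with a log2 change of -0.42 (SE 0.18, limma, unadjusted p = 0.0603). Syn1, a synaptic vesicle protein and CaMKII substrate, had a log2 change of 0.42 (SE 0.23), Grin2a, an NMDA receptor subunit, one of 0.34 (SE 0.19), and Arc, an activity-dependent synaptic protein, one of 0.52 (SE 0.29). In the cascade below CaMKK, Prkaa1, a catalytic subunit of AMP-activated protein kinase, had a log2 change of 0.34 (SE 0.19). Camk1 and Camk1d, encoding CaM kinase I isoforms, had log2 changes of -0.28 (SE 0.22) and 0.24 (SE 0.21). Stk11, another kinase that activates AMP-activated protein kinase, stands beside CaMKK rather than below it and had a log2 change of 0.24 (SE 0.20). Among the other CaM-regulated kinases, Mylk, the myosin light chain kinase, had a log2 change of 0.38 (SE 0.19) and Dapk2, a death-associated kinase, one of -0.40 (SE 0.28), both below the negative control median.

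**Figure D5:**
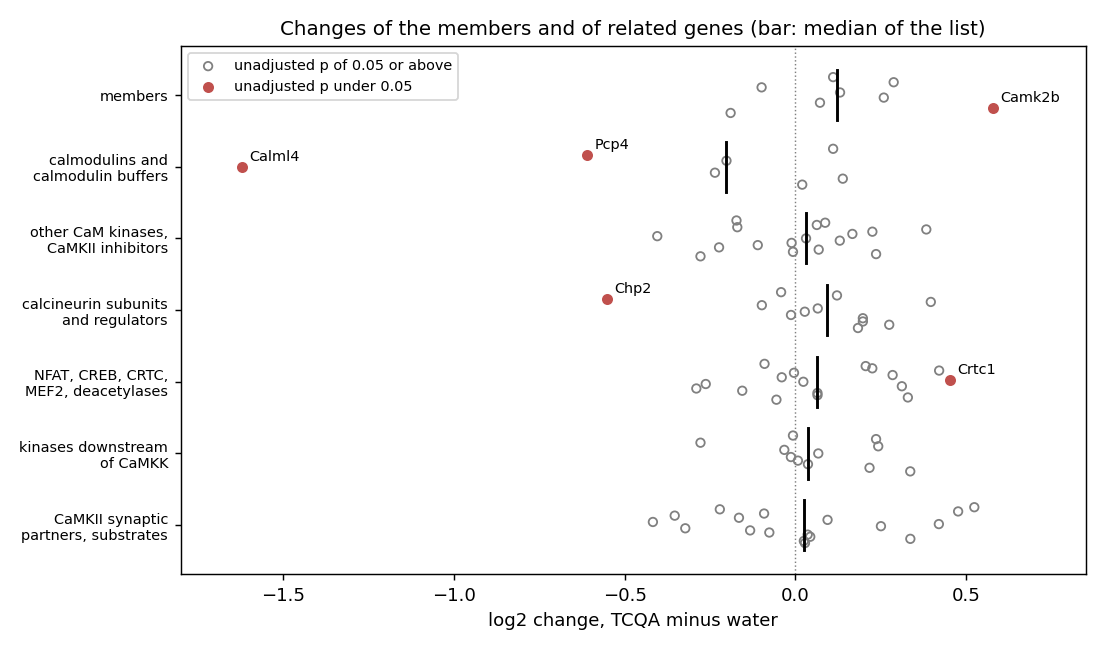
Log2 change, TCQA minus water, of the 8 members and of the measured genes of 6 related lists, 1 circle a gene, spread vertically for legibility, with a bar at each list's median and named red points for an unadjusted p under 0.05. Members are left out of the related lists, list medians lie between -0.20 and 0.12, and the named points are Camk2b, Calml4, Pcp4, Chp2 and Crtc1.

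The 3 genes whose profile over the 4 arrays was most like the mean profile of the 8 genes, by the root mean square difference of centred log2 levels among genes at or above the median signal, were Dnajb4 (0.00575), Dtx1 (0.0107) and Tmco1 (0.0111). Because they were picked for that profile, each was lowest in water 1, which is no separate result. Dnajb4, for example, had 12.48 and 12.46 in the TCQA arrays and 12.21 and 12.44 in the water arrays.

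The promoters were examined for shared sequence, since CREB is the transcription factor at the end of the CaM kinase cascade. RefSeq promoter windows on GRCm38.p6, from 250 bases before to 50 after the start, were at hand for 5 of the 9 genes, Camk2b, Camk2d, Camkk1, Camkk2 and Nrgn. The half-site of the cAMP response element bound by CREB, TGACG on either strand, was found in 1 of the 5 and in 20.8% of all 32851 promoter windows. That 1 gene was Camkk1, which was not measured on the arrays. The GC box, GGGCGG on either strand, was found in all 5 of them and in 35.7% of all windows. Their GC content ran from 59.3% in Nrgn to 77.3% in Camk2b, against a median of 52.7% and a 90th percentile of 69.7% over all windows. The share of all windows was not matched for GC content, so no shared element is read from this count. The windows of Camk2b, which had the smallest p of the 8, and of Nrgn are shown, with GC boxes in capitals. Nrgn was 1 of the genes whose direction turned when 1 array was left out. Camk2b lies at chr11:6065699-6065998 on the minus strand and Nrgn at chr9:37552696-37552995 on the minus strand, both written 5′ to 3′ along the gene.
Camk2b: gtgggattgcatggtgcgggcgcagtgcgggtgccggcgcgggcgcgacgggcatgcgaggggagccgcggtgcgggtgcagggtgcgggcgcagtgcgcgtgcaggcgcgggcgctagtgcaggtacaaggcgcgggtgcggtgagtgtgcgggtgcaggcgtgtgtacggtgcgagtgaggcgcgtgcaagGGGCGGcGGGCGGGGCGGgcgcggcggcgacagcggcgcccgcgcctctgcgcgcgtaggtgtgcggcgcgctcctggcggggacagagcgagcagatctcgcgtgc
Nrgn: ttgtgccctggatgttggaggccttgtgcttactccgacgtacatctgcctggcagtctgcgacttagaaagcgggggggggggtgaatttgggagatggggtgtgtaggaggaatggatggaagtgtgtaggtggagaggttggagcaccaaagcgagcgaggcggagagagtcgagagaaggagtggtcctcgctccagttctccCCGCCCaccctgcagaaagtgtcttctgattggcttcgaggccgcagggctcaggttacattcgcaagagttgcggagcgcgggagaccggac
Camk2b held 3 matches, some of which share a base, and 51 CG dinucleotides, and Nrgn held 1 match and 17 CG dinucleotides. The arrays measured transcripts only, and a match is a description of the letters, not of a bound site.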

How the data were processed

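RNA of brain cortex from 4 samples was hybridised to Clariom S mouse arrays, from 100 ng each per the submitters' design text. According to that text, the authors ran the Transcriptome Analysis Console 4.0.2 with its signal space transformation RMA, which gave the log2 signals they deposited, and RMA and limma stand in the submitters' processing notes. Such values carry no depth, so precision is limited by how many arrays there are. The authors' detection filters were not used here. No genome build of the array was given.

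Symbols came from the platform annotation, which gave 1 to 19572 of 28846 rows; the brightest row stood for a symbol with several. Groups followed the sample titles. limma 3.58.1 in R 4.3.3 was fitted to all 19572 (lmFit, eBayes, 2-sided, Benjamini-Hochberg over all). The median SE was 0.22, so that an unadjusted p of 0.05 met a log2 change of 0.52. The model was tested on simulated data. The labels do not say whether replicate numbers pair the samples, and the main fit used no pairing. The differences between replicates 1 and 2 had a correlation of -0.0032 between the groups, which cannot settle that question.

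The members and lists were chosen with earlier results of these data known. Named were all members, the 4 smallest p-values of each related list, calmodulin and calcineurin subunit genes and the 3 nearest profiles; Slc17a7, Emx1 and the choroid plexus markers named were chosen after their values were seen. Of 85 related genes 79 were measured. Alternatives were other variance priors, normalisations, a signal filter, the row per symbol, a replicate block and arrays left out; leaving out TCQA 2 and water 1 together was chosen after seeing the data. Python 3.11.15 with matplotlib 3.10.9 drew the figures.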

Additional observations from a re-analysis of the deposited data

How the results depend on the processing

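The count of 6 of the 8 genes higher after TCQA lay between 5 and 7, and their median log2 change between 0.037 and 0.15, over the 12 alternatives, and with TCQA 2 and water 1 both left out they were 4 and 0.027. Each measured member had 1 row, so the row per symbol could only repeat the main result for the members. The other variance priors, the signal filter and the replicate block could change a member's p but left its log2 change as it was. The count of members with an unadjusted p under 0.05 by limma, 1 with all arrays, lay between 0 (without TCQA 2) and 1 when arrays were left out; without water 2 the 1 gene was Nrgn in place of Camk2b. Camk2b had an unadjusted p under 0.05 in 10 of 12 alternatives, with log2 changes of 0.48 to 0.68 and adjusted p-values of 0.360 to 0.965 (limma or ordinary least squares). Under the replicate block its log2 change was 0.58 with an unadjusted p of 0.0353, the count of members was 1, and no call of a member changed; of the related genes named, Crtc1 had an unadjusted p of 0.0660 there. Crtc1 also lost an unadjusted p under 0.05 with the prior over every row (0.0610), quantile normalisation (0.0827) and median centring (0.0572). Pcp4 lost it with no empirical Bayes step (0.0844), and Chp2 with that (0.124), the trend and robust prior (0.0770), the prior over every row (0.0607) and quantile normalisation (0.0620), all by limma or ordinary least squares. Signs turned with arrays left out for Camk2d (-0.034 without TCQA 2, range -0.073 to 0.18), Camkk2 (0.064 without water 2, range -0.30 to 0.064), Nrgn (-0.087 without water 1, range -0.087 to 0.66), Ppp3cc (-0.067 without TCQA 2, range -0.30 to 0.62) and Calm2 (-0.045 without water 1, range -0.055 to 0.085), where the ranges include TCQA 2 and water 1 left out together. With that pair left out Ppp3cb (-0.016) and Arc (-0.022) turned as well. That of Calm2 also turned under quantile normalisation (-0.0033). None of these had an unadjusted p under 0.05 by limma with all arrays.

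Over all transcript clusters, the study's criteria called 130, against 55 with no empirical Bayes step, 56 with the signal filter, which tests fewer genes, and 218 to 428 with 1 array left out. An unadjusted p under 0.05 was reached by 1443, and by 942 with that filter. The adjusted threshold was passed by 0, and by 0 to 2 with 1 array left out, the 2 without TCQA 1. With no empirical Bayes step 0 passed and 1322 had an unadjusted p under 0.05. With 1 array left in a group, that array is assumed to vary like the other group. The cause of these shifts was not tested. With a median SE of 0.22, log2 changes under 0.52 were as a rule not detectable at an unadjusted p of 0.05.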
